A study of Mus musculus with 8 samples.

Results

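The genes described here are 9 regulators and receptors that hold T cells in a naive or resting state and route them through lymphoid organs: Foxo1, Klf2, S1pr1, Ccr7, Il7r, Tcf7, Lef1, Bach2 and Satb1. They were chosen by name, and all 9 were found among the 45232 rows of the deposited table. RNA had been measured in CD4+ CD25+ T cells, the surface phenotype of most regulatory T cells (Tregs), taken by sorting from visceral fat and from spleen of C57BL/6 mice, with at least 500 cells per sample per the labels. The 4 groups were KO adipose and WT adipose, then KO spleen and WT spleen, with 2 libraries each, from experiments 2 and 3. Where a group has 2 values, that of experiment 2 stands first. KO mice carry the genotype label Id2 CKO, and no treatment is given. The labels give no Cre driver or cell type for the deletion, no age and no word on pooling of animals. They also leave unsaid whether 2 libraries of a group stem from different mice, so the p-values rest on the spread between libraries, which may be in part technical. Values are TPM, a transcript's share of its library after scaling by length. Fold changes are differences of log2(TPM + 1), which understate changes of low genes.

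As background, FOXO1 is a transcription factor that AKT signaling drives out of the nucleus, and in resting T cells it activates Klf2, Ccr7 and Il7r. KLF2 activates S1pr1, which lets T cells leave lymphoid organs along a sphingosine 1-phosphate gradient, while CCR7 brings them into lymph nodes. TCF-1, the product of Tcf7, and LEF1 keep the early T cell program, and BACH2 restrains effector programs. SATB1 is a chromatin organizer of T cells. Resting Tregs of lymphoid organs express several of these genes, whereas Tregs of adipose tissue are known as an effector population. Id2, the targeted gene, binds E proteins and keeps them from the E-box sequence CANNTG.

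The table of promoters from RefSeq (build GRCm38.p6) gave 250 bases before to 50 after a transcription start for 7 of the 9 genes, with 15 starts in all. The 4 genes with a single start are printed, because a single start leaves no choice of window. E-boxes are in capitals, and each sequence reads 5′ to 3′ on the strand of the gene.
Bach2, chr4:32417185-32417484, + strand: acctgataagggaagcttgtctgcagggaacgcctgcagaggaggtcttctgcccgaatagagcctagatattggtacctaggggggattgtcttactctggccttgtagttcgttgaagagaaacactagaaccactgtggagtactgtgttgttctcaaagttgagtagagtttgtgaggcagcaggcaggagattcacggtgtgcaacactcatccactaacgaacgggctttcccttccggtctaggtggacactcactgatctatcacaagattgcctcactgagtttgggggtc
Foxo1, chr3:52268087-52268386, + strand: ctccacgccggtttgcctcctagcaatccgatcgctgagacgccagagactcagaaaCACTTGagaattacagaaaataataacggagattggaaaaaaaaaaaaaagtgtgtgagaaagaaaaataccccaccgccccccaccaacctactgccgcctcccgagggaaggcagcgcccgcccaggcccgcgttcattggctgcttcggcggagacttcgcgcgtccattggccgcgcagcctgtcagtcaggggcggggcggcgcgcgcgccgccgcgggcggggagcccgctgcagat
Il7r, chr15:9529827-9530126, - strand: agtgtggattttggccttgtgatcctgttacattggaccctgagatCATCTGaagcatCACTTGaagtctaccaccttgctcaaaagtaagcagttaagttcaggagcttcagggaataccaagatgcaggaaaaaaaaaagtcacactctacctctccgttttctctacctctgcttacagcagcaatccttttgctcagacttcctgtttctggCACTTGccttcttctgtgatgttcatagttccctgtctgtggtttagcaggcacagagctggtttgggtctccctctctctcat
Klf2, chr8:72318812-72319111, + strand: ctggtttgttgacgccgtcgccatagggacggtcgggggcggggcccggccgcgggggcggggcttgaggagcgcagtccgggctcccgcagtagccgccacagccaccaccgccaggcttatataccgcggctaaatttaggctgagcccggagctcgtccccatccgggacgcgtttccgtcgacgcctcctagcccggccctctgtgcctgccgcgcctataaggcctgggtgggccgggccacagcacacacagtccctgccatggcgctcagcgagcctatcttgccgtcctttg
The Bach2 and Klf2 windows held no CANNTG. Foxo1 held 1, CACTTG at position -193 from the start. Il7r held 3, CATCTG at -204 and CACTTG at -192 and at -34. Of the 15 windows 12 held an E-box, and among all 32851 windows of the same length the share was 72.3%. Overlapping windows of Lef1 share a CAAGTG, and overlapping windows of Satb1 share a CACTTG, so the windows are not all independent. CANNTG reads the same on both strands, so each match was counted once per window. The files were mapped to mm9, so these coordinates belong to the sequences and not to the measurements.

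Several facts of the libraries touch what follows. Id2 itself had 1499 and 1298 TPM in KO adipose, 2249 and 3679 TPM in WT adipose, 72.1 and 265 TPM in KO spleen, and 274 and 346 TPM in WT spleen. Neither genotype difference passed the test (limma adjusted p = 0.751 and 1). Foxp3, the lineage factor of Tregs, was low in both KO libraries of experiment 2, with 7.40 TPM for adipose tissue and 8.27 TPM for spleen, and lay between 93.5 and 266 TPM elsewhere. The 10 T cell markers were above 0 in every library, with a summed level of 4305 TPM in KO adipose 3 and 8466 to 12760 TPM in the other libraries. KO adipose 3 also held 11114 TPM of 9 macrophage genes, against 9.41 to 612 TPM elsewhere, and 1053 TPM of 7 endothelial genes, against 7.23 to 139 TPM. Fibroblast and mesothelium genes summed to 478 and 2879 TPM in KO adipose and to at most 3.92 TPM in any other library. Of that list 3 genes passed the test in KO over WT adipose (Dcn, Msln and Upk3b), and 5 in KO adipose over KO spleen (the same 3, Col3a1 and Krt19). B cell genes summed to 27.2 to 56.1 TPM in adipose libraries and to 81.3 to 434 TPM in spleen libraries. In such sorted bulk samples, fewer cells of a type and less RNA per cell cannot be told apart.

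All 9 genes had a value above 0 in every library, and all 9 passed the filter of at least 1 TPM in at least 2 libraries. The comparisons were 5 in number: the adipose and the spleen genotype comparison (KO over WT), the KO and the WT tissue comparison (adipose over spleen), and the interaction of genotype and tissue. In the limma fit over 13376 genes, 0 of the 9 passed an adjusted p of 0.05 in any comparison. Of all genes tested, 0.284% passed in the adipose genotype comparison, 0% in the spleen one, 1.08% in the KO tissue comparison, 0.164% in the WT one and 0.0299% for the interaction. At an unadjusted p under 0.05 the 9 genes gave 1 in the adipose genotype comparison (Tcf7, background 6.97%), 0 in the spleen one (0.478%), 3 in the KO tissue comparison (Klf2, Il7r and Bach2, 12.9%), 3 in the WT one (Il7r, Bach2 and Foxo1, 13%) and 0 for the interaction (3.06%). The 9 genes did not share 1 direction. Within each genotype Il7r had higher and Bach2 and Foxo1 had lower values in adipose tissue than in spleen, while Ccr7 and Lef1 overlapped between all pairs of groups. Of all genes tested, 22.1% in KO and 37.8% in WT were higher in adipose libraries without overlap, and 14.6% and 15.1% were lower.

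**Figure D1:**
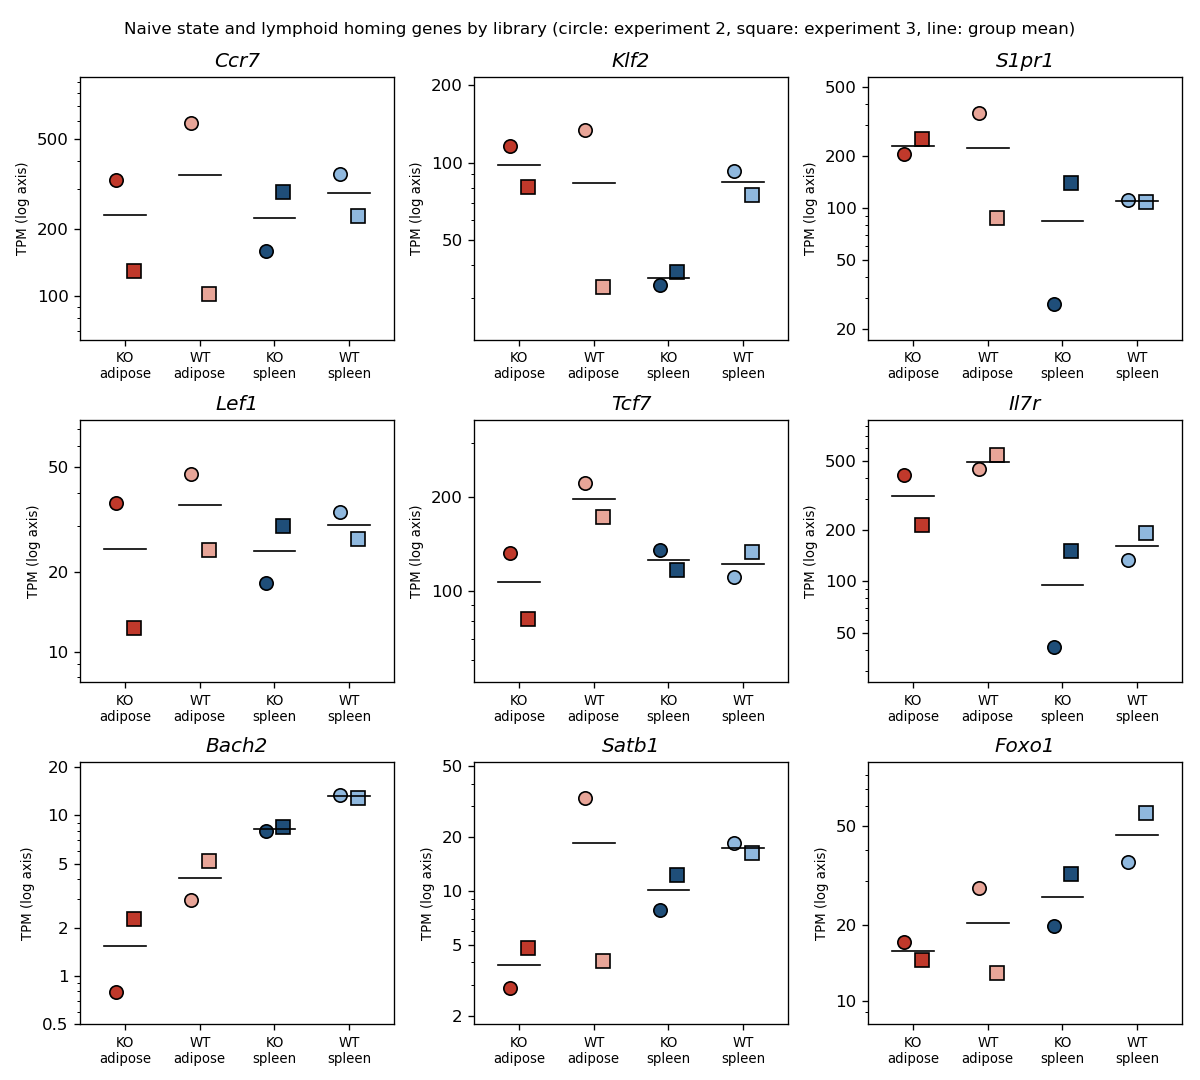
Level of each of the 9 genes in each library, in TPM on a log axis, with experiment 2 as circles, experiment 3 as squares and the group mean as a line. Bach2 runs from 0.798 TPM in KO adipose 2 to 13.5 TPM in WT spleen 2, while Ccr7 spans 103 to 589 TPM within WT adipose alone.

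Among the transcription factors at the head of the homing circuit, Foxo1 had 17.2 and 14.5 TPM in KO adipose, against 28.2 and 12.9 TPM in WT adipose. KO spleen had 19.8 and 32.1 TPM, against 35.8 and 56.1 TPM in WT spleen. The spleen genotypes did not overlap, and the adipose libraries of each genotype lay below its spleen libraries. The tissue comparison gave log2 fold changes of -0.65 in KO (SE 0.49, 95% interval -1.77 to 0.48, limma adjusted p = 0.642) and -1.19 in WT (SE 0.49, -2.31 to -0.061, adjusted p = 0.364). The genotype comparison gave -0.26 in adipose tissue (SE 0.49, -1.39 to 0.87, adjusted p = 0.908) and -0.80 in spleen (SE 0.49, -1.93 to 0.32, adjusted p = 1). The adipose genotype value had no stable sign: it was 0.27 without WT adipose 2 and 0.10 when libraries were scaled to equal T cell markers. The spleen genotype value was -0.82 in experiment 2 and -0.79 in experiment 3, and ran from -1.14 without KO spleen 3 to -0.47 without KO spleen 2. The KO tissue value ran from -0.98 without KO spleen 2 to -0.31 without KO spleen 3, and the WT one from -1.72 without WT adipose 2 to -0.65 without WT adipose 3.

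Klf2, which controls exit of T cells from lymphoid organs, had 116 and 80.2 TPM in KO adipose, and 134 and 33.0 TPM in WT adipose. KO spleen had 33.7 and 37.6 TPM, below the 93.2 and 75.2 TPM of WT spleen. KO spleen had the lowest mean of the 4 groups, 35.7 ± 2.77 TPM (SD, n = 2), although the single lowest library was WT adipose 3. The spleen genotype comparison gave -1.21 (SE 0.59, 95% interval -2.56 to 0.14, limma adjusted p = 1), with -1.44 in experiment 2 and -0.98 in experiment 3. The tissue comparison gave 1.41 in KO (SE 0.59, 0.058 to 2.76, adjusted p = 0.371) and -0.32 in WT (SE 0.59, -1.67 to 1.03, adjusted p = 0.835). The genotype effect in adipose tissue was 0.52 (SE 0.59, -0.83 to 1.88, adjusted p = 0.835) and its sign turned without WT adipose 3 (-0.47). The interaction was 1.73 and did not pass (SE 0.83, -0.18 to 3.65, adjusted p = 0.99998), with 0.74 without WT adipose 3 and 2.73 without WT adipose 2.

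S1pr1, the receptor for egress and a KLF2 target, had 204 and 250.3 TPM in KO adipose, and 355 and 87.4 TPM in WT adipose. KO spleen had 27.7 and 139.9 TPM, and WT spleen 111 and 108 TPM. The KO libraries of adipose tissue were both above those of spleen, whereas the WT tissues overlapped. The log2 fold change between tissues was 1.84 in KO (SE 0.80, 95% interval -0.0084 to 3.68, limma adjusted p = 0.389) and 0.69 in WT (SE 0.80, -1.16 to 2.53, adjusted p = 0.730), and without KO spleen 2 the KO value was 0.69, while the WT value turned to -0.32 without WT adipose 2. The genotype values were 0.36 in adipose tissue (SE 0.80, -1.49 to 2.20, adjusted p = 0.922) and -0.79 in spleen (SE 0.80, -2.64 to 1.05, adjusted p = 1). These 2 values turned to -0.65 without WT adipose 3 and to 0.35 without KO spleen 2. Endothelial cells express S1pr1 and Klf2 as well. S1pr1 was at 204 TPM in KO adipose 2, where the endothelial genes summed to 13.3 TPM with 4 of 7 listed at 0, and at 250.3 TPM in KO adipose 3, where they summed to 1053 TPM with 0 of 7 at 0. The part of endothelial cells in S1pr1 and Klf2 was not tested.

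Ccr7, the receptor for entry into lymph nodes, had 329.97 and 129 TPM in KO adipose, and 589 and 103 TPM in WT adipose. KO spleen had 158 and 289.7 TPM, and WT spleen 350.2 and 228 TPM. Every pair of groups overlapped, and the spread within WT adipose alone was wider than any difference between group means. The log2 fold change between genotypes was -0.25 in adipose tissue and -0.40 in spleen, and that between tissues was -0.052 in KO and -0.20 in WT (each SE 0.80, limma adjusted p = 0.951, 1, 0.983 and 0.929). The adipose genotype value turned positive without KO adipose 3 or WT adipose 2 (0.42 and 1.001), and the spleen one without KO spleen 2 (0.034). Between tissues the value turned positive in KO without KO adipose 3 or KO spleen 3 (0.62 and 0.38), and in WT without WT adipose 3 or WT spleen 2 (1.06 and 0.11). The 95% interval reached from -2.08 to 1.57 for the genotypes in adipose tissue and from -2.02 to 1.63 for the tissues in WT, so differences of several fold in either direction were not detectable. Both adipose libraries of experiment 2 were high, and both of experiment 3 were low.

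Il7r, the IL-7 receptor alpha chain that carries survival signals in resting T cells, had 415 and 212 TPM in KO adipose, against 450.01 and 546 TPM in WT adipose. KO spleen had 41.6 and 149 TPM, and WT spleen 133 and 190.1 TPM. All 4 adipose libraries were above all 4 spleen libraries, and in adipose tissue KO lay below WT. Higher in adipose tissue without overlap were 22.1% of all genes in KO and 37.8% in WT. Lower without overlap in KO adipose were 27.5%. The share of genes with all 4 adipose libraries above all 4 spleen libraries was not counted. Between tissues the log2 fold change was 1.90 in KO (SE 0.59, 95% interval 0.54 to 3.26, limma adjusted p = 0.232) and 1.64 in WT (SE 0.59, 0.28 to 2.995, adjusted p = 0.322). By experiment it was 3.29 and 0.50 in KO, and 1.75 and 1.52 in WT, and the KO value was 0.99 without KO spleen 2. Between genotypes it was -0.74 in adipose tissue (SE 0.59, -2.10 to 0.62, adjusted p = 0.793) and -0.999 in spleen (SE 0.59, -2.36 to 0.36, adjusted p = 1). The adipose value was -0.26 without KO adipose 3 and the spleen one -0.089 without KO spleen 2. Per 1000 TPM of the T cell markers, Il7r amounted to 33.0 and 49.3 TPM in KO adipose and 41.8 and 64.5 TPM in WT adipose, against 3.26 to 19.9 TPM in the spleen libraries. Type 2 innate lymphoid cells also express Il7r, and their 6 marker genes, of which Rora is also on the effector Treg list, summed to 75.9 to 409 TPM in adipose libraries against 4.33 to 16.3 TPM in spleen libraries; their part in Il7r was not tested.

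**Figure D2:**
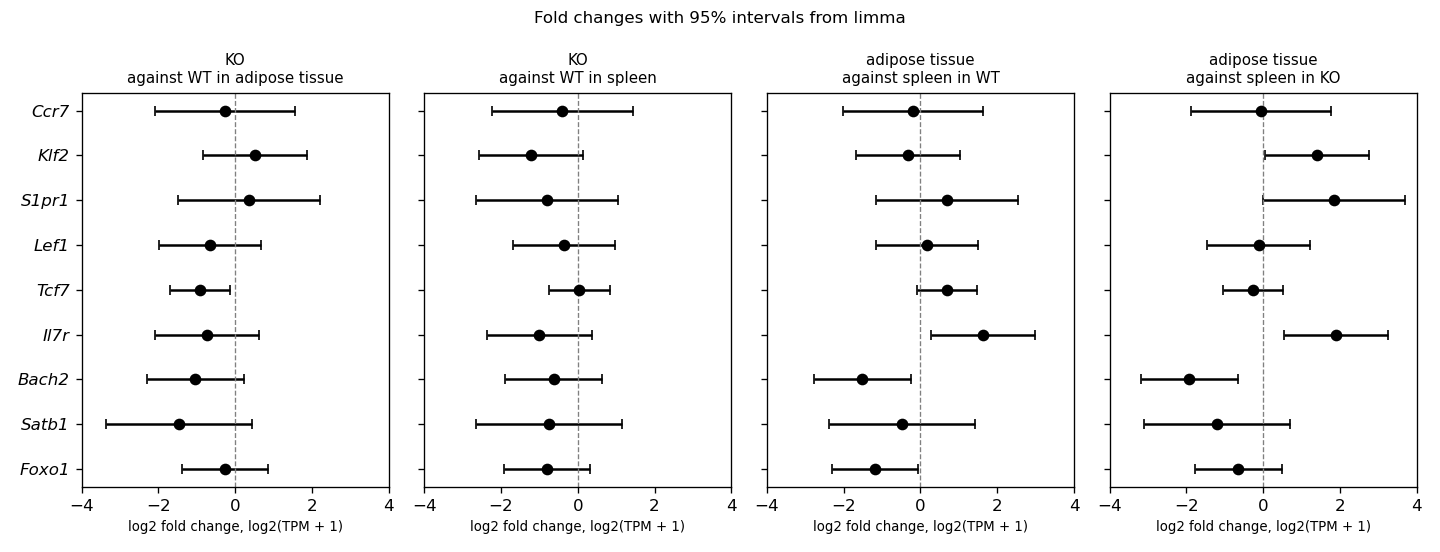
Log2 fold change of each gene with its 95% interval from the limma fit over all 8 libraries, in 4 comparisons, with 0 as a dashed line. The intervals of Il7r and Bach2 lie on opposite sides of 0 for adipose tissue against spleen in both genotypes, while that of Tcf7 alone misses 0 in the adipose genotype comparison, and no value passed after adjustment over all genes.

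Tcf7, which encodes TCF-1, had 132 and 81.6 TPM in KO adipose, against 222 and 173 TPM in WT adipose. KO spleen had 135 and 116 TPM, and WT spleen 111 and 133 TPM. WT adipose lay above the 6 other libraries, and the spleen genotypes overlapped. The adipose genotype comparison gave -0.91 (SE 0.34, 95% interval -1.70 to -0.12, limma adjusted p = 0.604), with -0.75 in experiment 2 and -1.07 in experiment 3. It was -0.54 after scaling to equal T cell markers, and -0.57 without KO adipose 3, the library with the lowest T cell marker sum. Per 1000 TPM of T cell markers Tcf7 amounted to 10.5 and 18.9 TPM in KO adipose against 20.7 and 20.4 TPM in WT adipose. The spleen genotype value was 0.045 (SE 0.34, -0.74 to 0.83, adjusted p = 1), and it changed sign when KO spleen 2 or WT spleen 2 was left out. Between tissues the value was -0.27 in KO (SE 0.34, -1.06 to 0.52, adjusted p = 0.793), or 0.34 after the T cell marker scaling, and 0.68 in WT (SE 0.34, -0.10 to 1.47, adjusted p = 0.439). The interaction of -0.96 did not pass (SE 0.48, -2.07 to 0.16, adjusted p = 0.99998).

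Lef1, the partner of TCF-1 in the early T cell program, had 36.7 and 12.3 TPM in KO adipose, and 47.3 and 24.4 TPM in WT adipose. KO spleen had 18.2 and 29.8 TPM, and WT spleen 33.9 and 26.6 TPM. In adipose tissue both libraries of experiment 2 were above both of experiment 3, whatever the genotype. The genotype comparison gave -0.64 in adipose tissue (SE 0.58, 95% interval -1.98 to 0.69, limma adjusted p = 0.806) and -0.35 in spleen (SE 0.58, -1.68 to 0.98, adjusted p = 1). The tissue comparison gave -0.12 in KO and 0.17 in WT (each SE 0.58, adjusted p = 0.955 and 0.913). The adipose genotype value was 0.11 without KO adipose 3, and the spleen one ran from -0.69 without KO spleen 3 to -0.011 without KO spleen 2. Per 1000 TPM of T cell markers Lef1 amounted to 2.92 and 2.86 TPM in KO adipose, against 4.39 and 2.88 TPM in WT adipose, and to 1.43 to 2.97 TPM in spleen.

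Bach2, a repressor of effector genes, had the lowest mean level of the 9 genes. It had 0.798 and 2.27 TPM in KO adipose, 2.97 and 5.21 TPM in WT adipose, 7.99 and 8.44 TPM in KO spleen, and 13.5 and 12.9 TPM in WT spleen. No pair of groups overlapped, with the order WT spleen, KO spleen, WT adipose and KO adipose from the highest down. No other of the 9 genes separated all 4 groups, and the share of all genes tested that do so was not counted. Lower without overlap in adipose tissue were 14.6% of all genes in KO and 15.1% in WT. Lower without overlap in KO were 27.5% in adipose tissue and 13.9% in spleen. The tissue comparison gave -1.93 in KO (SE 0.55, 95% interval -3.19 to -0.66, limma adjusted p = 0.189) and -1.51 in WT (SE 0.55, -2.78 to -0.25, adjusted p = 0.322). The genotype comparison gave -1.03 in adipose tissue (SE 0.55, -2.30 to 0.23, adjusted p = 0.748) and -0.62 in spleen (SE 0.55, -1.88 to 0.64, adjusted p = 1). All 4 values were negative in both experiments. The adipose genotype value was -0.60 without KO adipose 2. B cells express Bach2 too. Their marker sum was 384 and 81.6 TPM in KO spleen, and 434 and 81.3 TPM in WT spleen, and their part in Bach2 was not tested. Per 1000 TPM of T cell markers the adipose libraries had at most 0.615 TPM of Bach2 and the spleen libraries at least 0.626 TPM.

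Satb1, which encodes a chromatin organizer of T cells, had 2.88 and 4.81 TPM in KO adipose, and 33.1 and 4.09 TPM in WT adipose. KO spleen had 7.90 and 12.4 TPM, below the 18.6 and 16.4 TPM of WT spleen. The spleen genotypes did not overlap, and KO adipose lay below KO spleen, but the 2 libraries of WT adipose differed 8.09-fold, the widest gap within a group among the 9 genes. The adipose genotype comparison gave -1.47 (SE 0.83, 95% interval -3.37 to 0.43, limma adjusted p = 0.751), made of -3.14 in experiment 2 and 0.19 in experiment 3, and it was -0.10 without WT adipose 2. In spleen it gave -0.76 (SE 0.83, -2.66 to 1.14, adjusted p = 1). Between tissues it gave -1.20 in KO (SE 0.83, -3.10 to 0.70, adjusted p = 0.603) and -0.49 in WT (SE 0.83, -2.39 to 1.41, adjusted p = 0.822), and the WT value was 0.88 without WT adipose 3.

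Counted over the 9 genes, 3 (Tcf7, Il7r and Bach2) were lower in both KO adipose libraries than in either WT adipose library, against 27.5% of all genes tested, and 0 were higher, against 7.66%. Within both experiments 4 of 9 were lower in KO adipose (43.1% of all genes), and 2 of 9 fold changes were above 0 (31.9%). The median log2 fold change was -0.64 for the 9 and -0.27 for all genes. Without KO adipose 3 it was -0.15 for the 9 and -0.40 for all genes, and without WT adipose 2 it was -0.10 for the 9 and -0.28 for all genes, so that the 9 then lay above the background. Without KO adipose 2, where Foxp3 was at 7.40 TPM, it was -0.93 for the 9 and -0.20 for all genes. Without WT adipose 3 it was -0.80 for the 9 and -0.24 for all genes, so in these 2 cases the gap widened. In spleen 4 of 9 (Klf2, Bach2, Satb1 and Foxo1) were lower in KO without overlap, against 13.9%, and 0 were higher, against 5.93%. Within both experiments 5 of 9 were lower (32.5%), and 1 of 9 fold changes was above 0 (35.3%). The median was -0.76 for the 9 and -0.12 for all genes, but without KO spleen 2, where Foxp3 was at 8.27 TPM, it was -0.089 for the 9 and 0.074 for all genes.

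Between tissues in KO, 3 genes (Klf2, S1pr1 and Il7r) were higher in adipose libraries without overlap, against 22.1% of all genes, and 3 (Bach2, Satb1 and Foxo1) were lower, against 14.6%. The same 3 were higher within both experiments (33%), 4 were lower (25.1%), and 3 of 9 fold changes were above 0 (58.5%). In WT 2 genes (Tcf7 and Il7r) were higher without overlap, against 37.8%, and 2 (Bach2 and Foxo1) were lower, against 15.1%. The same pairs were higher (47.2%) and lower (21%) within both experiments, and 4 of 9 fold changes were above 0 (65.5%). The median was -0.12 for the 9 and 0.16 for all genes in KO, and -0.20 for the 9 and 0.32 for all genes in WT. Neither median of the 9 kept its sign: in KO it ran from -0.72 without KO adipose 2 to 0.62 without KO adipose 3, with 0.22 without KO spleen 3 and 0.46 after scaling to equal T cell markers. In WT it ran from -1.19 without WT adipose 2 to 0.86 without WT adipose 3, with 0.11 without WT spleen 2. For the interaction 5 of 9 values were above 0 (39.6%), with a median of 0.15 for the 9 and -0.17 for all genes. That median of the 9 also changed sign, from -0.45 without KO spleen 2 to 0.66 without KO adipose 3 or WT adipose 2, and it was -0.72 without KO adipose 2 and KO spleen 2 together. Quantile normalization moved the medians of all genes to -0.089 and 0.0024 for the genotypes in adipose tissue and spleen, and to -0.11 and -0.0033 for the tissues in KO and WT. The comparisons share libraries, so their values are not independent of each other.

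The 2 libraries of a group differed by more than 2-fold for 5 of the 9 genes in WT adipose and 3 in KO adipose. In KO spleen 2 genes did so, and in WT spleen 0. In WT adipose 7 of the 9 genes were lower in experiment 3 than in experiment 2. WT adipose 2 was the highest of all 8 libraries for 6 genes (Ccr7, Klf2, S1pr1, Lef1, Tcf7 and Satb1), while WT adipose 3 was the lowest for 3 (Ccr7, Klf2 and Foxo1). In KO adipose 6 of 9 were lower in experiment 3, and in KO spleen 8 of 9 were higher in it. The smallest spread was in WT spleen, where no gene differed by more than 1.57-fold. The summed level of the 9 genes was 1255 and 788 TPM in KO adipose, 1862 and 988 TPM in WT adipose, 451 and 816 TPM in KO spleen, and 899.7 and 847 TPM in WT spleen. Effector and tissue Treg genes, 14 in all, summed to 2932 and 2595 TPM in KO adipose, and 3052 and 7295 TPM in WT adipose. They summed to 1034 and 1095 TPM in KO spleen, and 1174 and 1143 TPM in WT spleen. Cxcr6 alone held 3398 TPM of the sum in WT adipose 3. Between tissues 10 of the 14 were positive in KO and 11 in WT, against 58.5% and 65.5% of all genes. The other way went 4 in KO and 3 in WT, Batf and Irf4 among them in both. Batf had 128 to 253 TPM in adipose libraries and 397 to 794 TPM in spleen libraries. Irf4 had 0.841 to 10.5 TPM in adipose libraries and 10.9 to 16.1 TPM in spleen libraries. WT adipose 2 had the highest sum of the 9 genes, and WT adipose 3 the highest sum of the effector genes. Of the 14 effector genes 2 passed between tissues in KO and 1 in WT. Cxcr6, a chemokine receptor of tissue T cells, was higher in adipose tissue by 4.55 log2 units in KO and 5.98 in WT (each SE 0.52, limma adjusted p = 0.0109 and 0.00966). Its KO call was lost without KO adipose 3 or KO spleen 2 (0.0565 and 0.0811), and its WT call without KO adipose 2 or 3, WT adipose 3, or WT spleen 2 or 3 (0.0696 to 0.191). Ccr2 passed in KO (5.44, SE 0.91, adjusted p = 0.0385), but not without any 1 library other than KO spleen 3 (0.0514 to 0.172), and macrophages express it too.

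**Figure D3:**
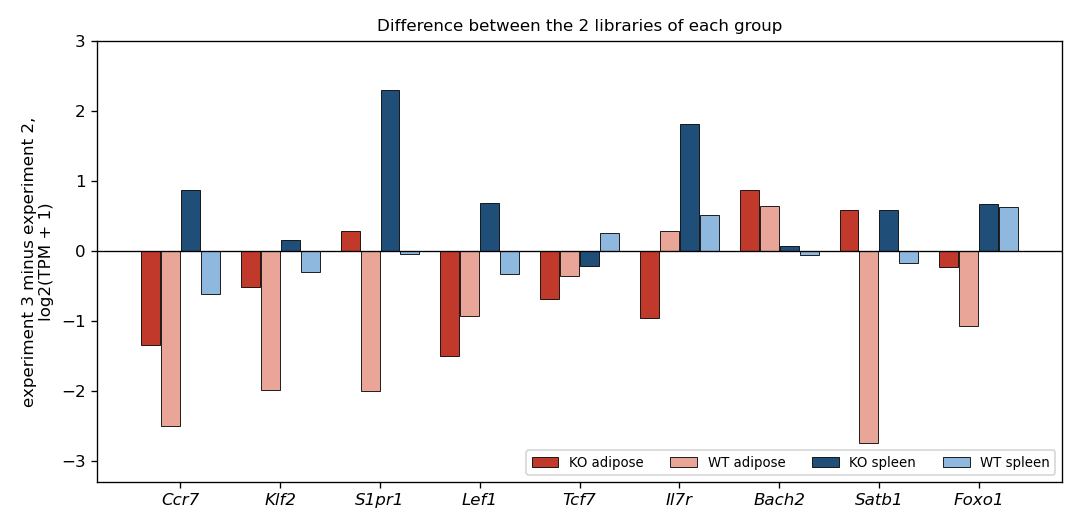
Experiment 3 minus experiment 2 for each gene and group, as differences of log2(TPM + 1). In WT adipose Ccr7, Klf2, S1pr1 and Satb1 stand at -2.51, -1.99, -2.01 and -2.74, whereas S1pr1 and Il7r are higher in experiment 3 by 2.30 and 1.82 units in KO spleen.

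**Figure D4:**
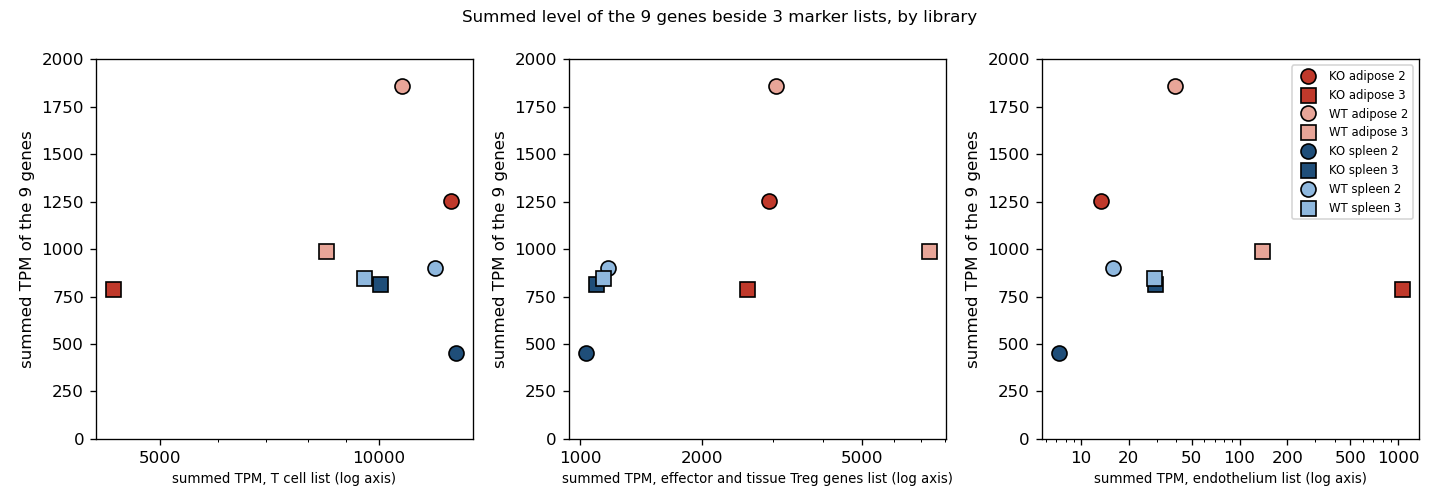
Summed TPM of the 9 genes in each library, on a linear axis from 0, beside the summed TPM of the T cell, effector and tissue Treg, and endothelial lists on log axes. KO adipose 3 stands apart by its low T cell sum of 4305 TPM and its endothelial sum of 1053 TPM, and WT adipose 3 by its effector sum of 7295 TPM.

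Other genes of the same circuits were counted by list. Of 15 other naive and central T cell genes, 0 passed in any comparison. Between tissues 9 were negative in KO (median -1.05) and 11 in WT (median -0.51), where 58.5% and 65.5% of all genes were above 0. Igfbp4, a gene of naive T cells on this list, had higher values in adipose tissue, with 40.7 and 111 TPM in KO adipose and 105 and 47.8 TPM in WT adipose, against 7.74 to 10.1 TPM in the spleen libraries (log2 fold change 2.66 in KO and 2.88 in WT, limma adjusted p = 0.0839 and 0.111). Between genotypes, 7 of the 15 were negative in adipose tissue (median 0.038) and 12 in spleen (median -0.33). In these comparisons 31.9% and 35.3% of all genes were above 0.

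Around S1pr1, a list of 9 genes held sphingosine 1-phosphate receptors, genes of their metabolism and Cd69, of which 6 were tested and 0 passed. All 6 were positive between tissues (medians 0.67 in KO and 1.16 in WT), as were 58.5% and 65.5% of all genes. All 6 were negative between genotypes (medians -0.72 in adipose tissue and -0.46 in spleen), where 31.9% and 35.3% of all genes were above 0. Cd69, whose product pulls S1PR1 from the cell surface, had 1390.4 and 473 TPM in KO adipose, 894 and 1238 TPM in WT adipose, 237 and 198 TPM in KO spleen, and 334 and 219 TPM in WT spleen. Its tissue folds were 1.90 in KO and 1.96 in WT (each SE 0.51, limma adjusted p = 0.162 and 0.202). Ccl19, a CCR7 ligand, was listed at 0 in every library, and Cxcr5 and Cxcr4, the tested genes of that list, did not pass. Of 8 tested IL-7 receptor partners and signaling genes, 0 passed, and all 8 were negative between genotypes in adipose tissue (median -0.84). In that comparison 31.9% of all genes were above 0, and all 10 T cell markers were negative too (median -0.54). Jak1, a kinase of the IL-7 receptor, had 82.5 and 128 TPM in KO adipose, and 267 and 213 TPM in WT adipose (log2 fold change -1.21, SE 0.44, limma adjusted p = 0.593). Of 8 tested TCF/LEF partners and Wnt genes 0 passed.

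Klf6, a relative of Klf2 that is induced by stimulation, was the only one of 6 other KLF genes past the test, and was higher in adipose tissue in both genotypes. It had 409.9 and 366 TPM in KO adipose, against 26.0 and 59.6 TPM in KO spleen (log2 fold change 3.26, SE 0.41, limma adjusted p = 0.0162), and 570.25 and 665 TPM in WT adipose, against 77.7 and 57.6 TPM in WT spleen (3.18, SE 0.41, adjusted p = 0.0389). The WT call was lost without any 1 library other than KO spleen 2 or KO spleen 3 (adjusted p = 0.0789 to 0.317), and the KO call without KO adipose 3, KO spleen 2, WT spleen 2 or WT spleen 3 (0.0539 to 0.0811). Of 9 tested FOXO family and PI3K-AKT genes 0 passed. Sgk1, a kinase that phosphorylates FOXO proteins, had 31.6 and 126 TPM in KO adipose and 39.4 and 169 TPM in WT adipose, against 1.99 to 5.81 TPM in spleen (log2 fold change 3.93 in KO and 3.70 in WT, each SE 0.83, adjusted p = 0.0838 and 0.152). The 11 immediate early genes, which respond to stimulation and handling, summed to 6712 and 7686 TPM in KO adipose and to 8494 and 16727 TPM in WT adipose, against 275 to 741 TPM in spleen, and their part in the levels of Klf6, Sgk1 and Klf2 was not tested. Of the 11, 5 passed between tissues in KO (Fos, Fosb, Junb, Ier2 and Dusp1) and 4 in WT (Fos, Fosb, Ier2 and Dusp1). On the type 2 innate lymphoid list Il5 passed between tissues in KO. Leaving out 1 library ended each of these calls of immediate early, fibroblast, mesothelium and Il5 genes in at least 1 case, other than that of Fos in KO.

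Around Bach2, Prdm1, which encodes the repressor Blimp-1 and is known to be repressed by BACH2, had 2.62 and 6.19 TPM in KO adipose, against 22.6 and 15.2 TPM in WT adipose (log2 fold change -1.94, SE 0.80, limma adjusted p = 0.671). KO spleen had 1.496 and 10.7 TPM, and WT spleen 5.19 and 10.3 TPM (-0.63, SE 0.80, adjusted p = 1). Bach2 and Prdm1 were both lower in value in KO adipose than in WT adipose without overlap, as were 27.5% of all genes tested. A link between the 2 genes was not tested. Of the 6 BACH and small MAF genes, 1 passed, Nfe2l2, between tissues in KO (2.14, SE 0.39, adjusted p = 0.0485), and its call was lost without any 1 of the 8 libraries (0.0578 to 0.296). Of 6 tested E protein and Id genes 1 passed, Id2, also between tissues in KO (3.32, SE 0.57, adjusted p = 0.0424), and its call was lost without any 1 library other than KO spleen 3 (0.0635 to 0.218).

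The genes closest in pattern to each of the 9 were sought among 7898 protein-coding genes with a mean of at least 5 TPM, by the root mean square difference of log2(TPM + 1) over the 8 libraries after centring each gene on its mean. Lef1 lay closest to Lck, a kinase of the T cell receptor (0.14 log2 units) that is also among the 10 T cell markers, and to Gimap4 (0.18). Tcf7 lay closest to Nubp1 (0.13) and Dhodh (0.13), and Ccr7 to Txk, a T cell kinase (0.25), and Klhdc2 (0.298). Klf2 lay closest to Siah1a (0.23) and Ube2e3 (0.296), and S1pr1 to Gpr146 (0.34) and Cdc25b (0.34). Il7r was closest to Itgb7, an integrin chain used for gut homing (0.23), which had 501 and 362 TPM in KO adipose, 855 and 1030.2 TPM in WT adipose, 73.1 and 235 TPM in KO spleen, and 169.8 and 286 TPM in WT spleen. Its second neighbour was Rnf166 (0.28). Bach2 was closest to Ipcef1 (0.25) and Zfp281 (0.39), Foxo1 to Rab3ip (0.26) and Grk6 (0.26), and Satb1 to Zfp58 (0.34) and Sbk1 (0.41). Within the set, Lef1 and Tcf7 were the closest pair (0.41), followed by Ccr7 and Lef1 (0.44). The 8 libraries share groups and experiments, so these distances are descriptions.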

How the data were processed

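The deposited values are TPM for 45232 gene names in 8 libraries, a unit read from the deposited columns, which each sum to 1000000 and show no common step. The submitters' processing notes name the build mm9, and the labels' protocols describe low-input cDNA and library kits. An aligner, a counter and an annotation: not given in the sources used here. Depth cannot be read from TPM and is unknown, so values carry no counting interval.

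From these values, log2(TPM + 1) was fitted by limma-trend (limma 3.58.1, R 4.3.3) in 1 model of 4 groups over 8 libraries (4 residual degrees of freedom). A gene entered if 2 or more libraries reached 1 TPM (13376 genes), with Benjamini-Hochberg adjustment over all of them in each comparison and a threshold of 0.05. SE and 95% intervals are limma's moderated ones. With 2 libraries against 2, an exact permutation test cannot go below p = 0.333, so none was run. The fit shares 1 spread over groups, although the SD of the log2 difference between libraries was 1.49 in KO adipose, 1.07 in WT adipose, 0.84 in KO spleen and 0.696 in WT spleen. The fit was tested on simulated data.

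The difference of experiments 3 and 2 correlated over tested genes with r = 0.128 to 0.382 in the 6 pairs of groups. The numbers, called experiments per the file headers, were taken as a possible pairing, and a replicate block was an alternative. Other alternatives changed the pseudocount, filter, scaling, variance model and libraries. Members, lists and tests were chosen with earlier results of these data known. The rule for names took all 9 members, Id2, Foxp3, list genes past the threshold, up to 4 genes of smallest p per list, and the 2 nearest genes of each member; of the genes of smallest p only some are printed, and 1 is not reported here. Motifs were searched as CANNTG in RefSeq windows matched by symbol.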

Additional observations from a re-analysis of the deposited data

How the results depend on the processing

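None of the 9 genes passed in any of the 5 comparisons of limma under any of 19 alternatives (18 for the interaction), and the lowest adjusted p was 0.0560, for Bach2 between the tissues in KO after quantile normalization. With the replicate block the number called was again 0 in each comparison. Of the alternative fold changes of single genes, 47 turned sign and 799 kept it, and the cause was not tested. Leaving out 1 library, the values that turned ranged as follows. Between genotypes in adipose tissue Ccr7 ran from -1.51 to 1.001, Klf2 from -0.47 to 1.52, S1pr1 from -0.65 to 1.36, Lef1 from -1.40 to 0.11 and Foxo1 from -0.80 to 0.27. In spleen Ccr7 ran from -0.83 to 0.034, S1pr1 from -1.94 to 0.35 and Tcf7 from -0.087 to 0.18. Between tissues in WT Ccr7 ran from -1.45 to 1.06, Klf2 from -1.32 to 0.67, S1pr1 from -0.32 to 1.69, Lef1 from -0.29 to 0.64 and Satb1 from -1.86 to 0.88. In KO Ccr7 ran from -0.72 to 0.62, Lef1 from -0.87 to 0.63 and Tcf7 from -0.62 to 0.073. For the interaction Ccr7 ran from -1.11 to 1.40, Lef1 from -1.05 to 0.46, Il7r from -0.65 to 1.17, Bach2 from -0.84 to 0.019 and Satb1 from -2.09 to 0.66. Without KO adipose 2 and KO spleen 2 together, the spleen genotype values turned to 0.034 for Ccr7, 0.35 for S1pr1 and -0.063 for Tcf7, and the interaction to -0.96 for Ccr7 and -1.13 for Il7r. Quantile normalization turned Foxo1 in the adipose genotype comparison to 0.0072, Tcf7 in the spleen one to -0.015 and Lef1 between the tissues in WT to -0.32. Scaling to equal T cell markers, chosen after seeing the data, turned Ccr7 to 0.12 and Foxo1 to 0.10 in the adipose genotype comparison, Tcf7 to -0.040 in the spleen one, Ccr7, Lef1 and Tcf7 to 0.56, 0.46 and 0.34 between the tissues in KO, and the Lef1 interaction to 0.14. Where a group was left with 1 library, that library was assumed to vary like the other groups.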

Other observations

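Several genes outside the 9, picked after their values were seen, split the adipose libraries by experiment rather than by genotype. Dapl1, a gene of naive T cells, was at 99.4 TPM (experiment 2) and 2.46 TPM (experiment 3) in KO adipose, and at 125 and 0 TPM in WT adipose. Slamf6 was at 99.4 and 21.2 TPM in KO adipose and at 65.9 and 15.9 TPM in WT adipose, and Txk at 22.1 and 7.39 TPM in KO adipose and at 27.6 and 5.24 TPM in WT adipose. Nkg7, a gene of cytotoxic lymphocytes, was at 1107 and 53.0 TPM in KO adipose and at 964 and 63.2 TPM in WT adipose. In spleen Dapl1 did not split this way, with 44.2 and 33.0 TPM in KO and 13.3 and 13.9 TPM in WT. Nkg7 was again higher in experiment 2 in KO spleen, with 932 and 276 TPM, but not in WT spleen, with 208 and 358 TPM. Txk had 6.03 and 19.5 TPM in KO spleen and 17.7 and 15.7 TPM in WT spleen. Slamf6 had 109 and 91.8 TPM in KO spleen and 98.7 and 86.0 TPM in WT spleen. No test was run on these genes as a group.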
